A study of Mus musculus with 6 samples.

Results

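The interferon receptor and sensor genes described here are 9 genes that pass or start the type I interferon signal: the receptor chains Ifnar1 and Ifnar2, the transcription factors Stat2, Irf9, Irf1 and Irf7, and the RNA sensors Ddx58, Ifih1 and Dhx58. They were chosen by symbol for their role in the pathway, with earlier results of these data known. Each was named by 1 probe set, and all 9 passed the brightness filter, out of 16797 genes tested. Transcript levels came from 6 whole-transcript arrays hybridised with RNA of 3 mouse tumour cell lines grown in medium with fetal bovine serum. LLC is a Lewis lung carcinoma line, AE17 comes from malignant mesothelioma, and MC38 is a line of colon adenocarcinoma. For every line 1 array was labelled sh Spp1, genotype Spp1 depletion, and another sh Ctrl, genotype wild type. The hairpin was directed against Spp1, which encodes the secreted glycoprotein osteopontin. The labels do not say whether the sh Ctrl cells carried a control hairpin, nor whether the sh Spp1 cells were a pool or 1 clone. The level of Spp1 was not analysed here, so every direction rests on the labels.

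Type I interferons bind a receptor built of Ifnar1 and Ifnar2. The receptor's kinases Jak1 and Tyk2 then activate STAT proteins, and Stat2, a partner STAT and Irf9 enter the nucleus as the complex ISGF3, which binds interferon-stimulated response elements. Interferon itself is made after RNA sensors in the cytoplasm detect double-stranded RNA and signal through the adaptor Mavs to Irf3 and Irf7. Most of these sensors and factors are themselves induced by interferon, so that a cell exposed to it holds more of the machinery that makes and reads it.

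Values are log2 intensities after quantile normalization between arrays, and a level can be compared between arrays for 1 gene but not between genes. A log2 intensity of 4.49, the 30th percentile of all probe sets, served as the floor of brightness. Across probe sets, the sh Spp1 and sh Ctrl arrays correlated at r = 0.982 in MC38 and 0.979 in LLC, but only at 0.939 in AE17, whose pair stood apart. The AE17 value was lower than that of any pair of arrays from different lines, such as 0.954 for the sh Ctrl arrays of AE17 and LLC. The AE17 arrays were thus less alike than arrays of different tumour lines. The mesothelial marker Msln stood at 5.34 and 5.13 on the AE17 sh Spp1 and sh Ctrl arrays, against 9.96 and 9.87 in MC38, and Calb2 lay under the floor on all arrays. The club cell marker Scgb1a1 and the epithelial adhesion gene Epcam also lay under the floor on all arrays, Epcam including both MC38 arrays. Of the markers listed, 9 of 12 mesothelial, 6 of 10 intestinal and 5 of 9 lung epithelial ones reached the floor on all arrays. The genes Krt8 and Krt18 count in each of these lists. Such markers reached the floor in all 3 lines alike, so these counts do not tell the lines apart. In LLC the keratin Krt18 was at 9.62 and 8.75 and Foxa2 at 6.99 and 7.03 on the sh Spp1 and sh Ctrl arrays. The mesothelial marker Pdpn was at 9.75 and 6.99 in AE17, and at 9.63 and 9.70 in MC38. The keratin Krt8 was at 6.47 on the AE17 sh Spp1 array and 11.08 on the AE17 sh Ctrl array. The leukocyte antigen Ptprc lay under the floor on all 6 arrays, but 6 of the 10 macrophage and leukocyte markers reached it on all arrays. In AE17 Cd68 was at 8.71 and 7.31, and Lyz2 at 5.12 and 7.50, on the sh Spp1 and sh Ctrl arrays. The sum of linear intensities over the 10 macrophage and leukocyte markers was 481, 808 and 415 on the sh Spp1 arrays of LLC, AE17 and MC38, and 381, 632 and 445 on the sh Ctrl arrays. For T and B cells the sums over 9 markers were 216, 249 and 261 on the sh Spp1 arrays, and 213, 285 and 226 on the sh Ctrl arrays. For plasmacytoid dendritic cells, which make much interferon, 6 markers summed to 1722, 1088 and 2187 on the sh Spp1 arrays, and 1845, 1165 and 2732 on the sh Ctrl arrays, most of it from Tcf4 and Bst2, while their defining marker Siglech stayed between 4.71 and 4.96. The part of these differences in the results below was not tested.

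Promoter sequences show which of these genes carry the letters that interferon-activated factors are known to bind. RefSeq promoters of build GRCm38.p6, each with 250 bases before and 50 after a start site, were held for 8 of the 9 genes, in 10 windows. The core of the interferon-stimulated response element was taken as GAAA, any 2 bases and GAAA again, on either strand. It occurred in 3.44% of all 32851 windows and in 3 of the 10, those of Stat2, Ddx58 and Ifih1. The core of the gamma-activated site, TTCNNNGAA, which reads the same on both strands and is bound by STAT dimers, occurred in 8.3% of all windows and in 3 of the 10 windows, those of Ifnar1 and Ifnar2 and 1 of the 2 of Irf1. The windows of Irf7 and Irf9 held neither. No match of one overlapped a match of the other in these windows. A match describes letters and does not show binding. Capitals mark the response element core in the Stat2 sequence (bases -250 to -1 from the start site, chr10:128270248-128270497, plus strand), the Ddx58 sequence (bases -250 to 20, chr4:40239806-40240075, minus strand) and the Ifih1 sequence (bases 21 to 50, chr2:62646206-62646235, minus strand). They mark the gamma-activated core in the Irf1 sequence (bases -250 to -1, chr11:53769764-53770013, plus strand) and the Ifnar2 sequence (bases -250 to -1, chr16:91372533-91372782, plus strand).
Stat2: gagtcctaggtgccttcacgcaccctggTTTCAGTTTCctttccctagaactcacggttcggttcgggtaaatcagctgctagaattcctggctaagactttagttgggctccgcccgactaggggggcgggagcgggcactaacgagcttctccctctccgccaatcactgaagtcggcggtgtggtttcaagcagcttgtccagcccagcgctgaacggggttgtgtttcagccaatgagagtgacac
Ddx58: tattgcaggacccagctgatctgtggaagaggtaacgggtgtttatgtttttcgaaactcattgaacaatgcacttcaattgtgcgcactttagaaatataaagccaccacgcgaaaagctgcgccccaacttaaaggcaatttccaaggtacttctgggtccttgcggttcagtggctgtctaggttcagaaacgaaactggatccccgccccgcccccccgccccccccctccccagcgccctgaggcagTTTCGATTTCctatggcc
Ifih1: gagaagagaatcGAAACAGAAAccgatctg
Irf1: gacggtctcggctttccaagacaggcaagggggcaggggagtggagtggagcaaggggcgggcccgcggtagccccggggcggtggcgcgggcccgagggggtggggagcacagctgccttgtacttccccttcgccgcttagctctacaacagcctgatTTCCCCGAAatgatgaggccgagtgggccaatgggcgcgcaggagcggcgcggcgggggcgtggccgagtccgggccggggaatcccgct
Ifnar2: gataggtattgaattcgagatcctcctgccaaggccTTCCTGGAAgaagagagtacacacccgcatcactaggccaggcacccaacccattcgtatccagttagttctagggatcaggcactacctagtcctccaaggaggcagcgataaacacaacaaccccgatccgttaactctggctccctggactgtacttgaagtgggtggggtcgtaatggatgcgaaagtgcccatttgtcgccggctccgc

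The receptor chains spanned less than 1 log2 unit over the 6 arrays. Ifnar1, the chain that carries Tyk2, was at 8.80, 9.59 and 9.52 on the sh Spp1 arrays of LLC, AE17 and MC38, and at 9.27, 9.58 and 9.38 on the sh Ctrl arrays. Its 6 values spanned 0.80 log2 units. Ifnar2, which binds the ligand with high affinity and carries Jak1, was at 9.55, 10.04 and 9.08 on the sh Spp1 arrays, and at 9.39, 9.21 and 9.49 on the sh Ctrl arrays. For Ifnar2 the AE17 sh Spp1 array was the highest and the MC38 sh Spp1 array the lowest, over a span of 0.96 log2 units. Ifnar2 was 1.77-fold higher on the AE17 sh Spp1 array, and its ratio there passed 1 log2 unit in the values as deposited, at 1.03. The log2 ratios of sh Spp1 over sh Ctrl were -0.47 in LLC, 0.02 in AE17 and 0.14 in MC38 for Ifnar1, and 0.15, 0.83 and -0.41 for Ifnar2. In bulk RNA a smaller share of cells with a transcript and less of it per cell cannot be told apart.

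The other 7 genes spanned between 2.98 and 6.11 log2 units. On the sh Ctrl arrays each of them was higher in MC38 than in AE17 and higher in AE17 than in LLC, an order that 14.1% of all genes showed. On the sh Spp1 arrays only Irf1 and Ifih1 had that order, against 13.1% of all genes, and the other 5 were highest in AE17, then MC38, then LLC, against 21.8%, an order that Ifnar1 also had. Stat2, the STAT of ISGF3, was at 6.54, 8.73 and 7.48 on the sh Spp1 arrays of LLC, AE17 and MC38, and at 6.63, 8.56 and 9.56 on the sh Ctrl arrays. Irf9, which gives ISGF3 its DNA contact, was at 6.48, 8.80 and 7.52 on the sh Spp1 arrays, and at 6.37, 7.85 and 9.35 on the sh Ctrl arrays. For both genes the MC38 sh Ctrl array was the highest and the LLC arrays were the lowest. Irf7, the factor that amplifies interferon production, was at 5.30, 9.07 and 6.11 on the sh Spp1 arrays, and at 5.24, 7.89 and 9.79 on the sh Ctrl arrays. Its level on the MC38 sh Spp1 array lay nearer to LLC than to AE17. Irf1, a factor induced by interferon gamma and other stimuli, was at 5.67, 7.93 and 8.08 on the sh Spp1 arrays, and at 6.54, 7.02 and 8.98 on the sh Ctrl arrays, so that both MC38 arrays were above the other 4.

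Among the sensors, Ifih1 and Dhx58 spanned more than any other of the 9 genes. Ddx58 encodes RIG-I, which binds short double-stranded RNA with a triphosphate end, and was at 8.37, 10.54 and 9.37 on the sh Spp1 arrays of LLC, AE17 and MC38, and at 8.01, 9.51 and 11.49 on the sh Ctrl arrays. Ifih1 encodes MDA5, which binds long double-stranded RNA, and was at 4.34, 8.83 and 8.97 on the sh Spp1 arrays, and at 4.96, 6.75 and 10.46 on the sh Ctrl arrays. The LLC sh Spp1 value of Ifih1 lay under the floor, the only value of the 9 genes to do so, and the 6 arrays spanned 6.11 log2 units. Dhx58 encodes LGP2, a relative of both without their signalling domains, and was at 5.17, 8.52 and 7.30 on the sh Spp1 arrays, and at 5.78, 6.90 and 10.26 on the sh Ctrl arrays, a span of 5.09. All 3 sensors were lowest in LLC and highest on the MC38 sh Ctrl array.

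**Figure D1:**
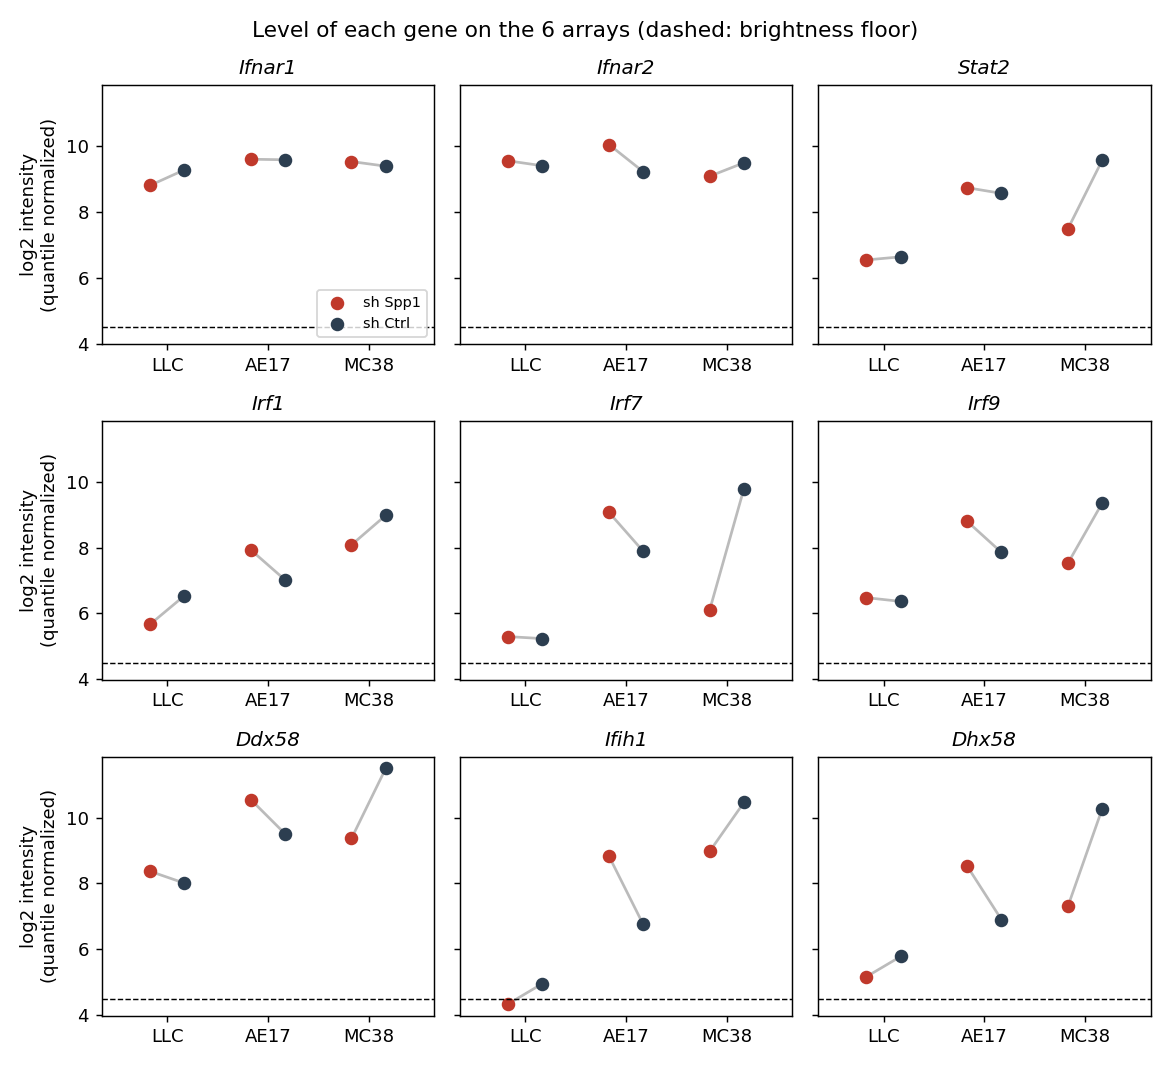
Log2 intensity (y axis, quantile normalized) of each of the 9 genes in LLC, AE17 and MC38 (x axis), with the sh Spp1 array (red, left) joined to the sh Ctrl array (dark, right) of the same line, 1 array per point, and the brightness floor of 4.49 dashed. The 6 values span 0.80 for Ifnar1 and 0.96 for Ifnar2. For Ifnar2, Stat2, Irf1, Irf9, Irf7 and the 3 sensors the red point lies under the dark one in MC38 and above it in AE17.

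The first comparison asked how the lines differ in these genes. Both MC38 arrays were above both LLC arrays for 8 of the 9 genes, against 24.9% of all genes, and both AE17 arrays were above both LLC arrays for the same 8, against 26.2%. The exception was Ifnar2. Ifih1 had a mean of 9.71 ± 1.05 in MC38 and 4.65 ± 0.44 in LLC (SD, n = 2 arrays each, 1 sh Spp1 and 1 sh Ctrl, not replicates). The difference for Ifih1 was 5.06 ± 0.88 log2 units (SE) or 33.4-fold. Its LLC values, 4.34 on the sh Spp1 array (under the floor) and 4.96 on the sh Ctrl array, limit the size of its differences from LLC. Dhx58 differed by 3.31 ± 1.08 between MC38 and LLC, Irf7 by 2.68 ± 1.19 and Irf1 by 2.43 ± 0.52. In AE17 against LLC, Irf7 differed by 3.21 ± 1.19, Ifih1 by 3.14 ± 0.88 and Stat2 by 2.06 ± 0.60. Between MC38 and AE17 the differences were smaller than 2 log2 units, and only Irf1 and Ifih1 had both MC38 arrays above both AE17 arrays, against 16.5% of all genes, while Ifnar1 had both AE17 arrays above, against 26.9%. Counted by size on the sh Ctrl arrays, MC38 exceeded LLC by at least 1 log2 unit in 7 genes, against 4.87% of all genes, and AE17 exceeded LLC in 6, against 6.38%, Irf1 missing it. On the sh Spp1 arrays these counts were 4, against 6.12%, and 7, against 10.7%. The 4 were Irf1, Irf9, Ifih1 and Dhx58.

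None of these line contrasts passed limma's moderated test, which called 0% of the 16797 genes at an adjusted p under 0.05 in any of the 3 contrasts. For MC38 against LLC the adjusted p was 0.169 for Ifih1 and 0.231 for Irf1, and between 0.351 and 0.928 for the others. At an unadjusted p under 0.05, 6 of the 9 genes were higher in MC38 than in LLC, against 6.24% of all genes, and 5 were higher in AE17 than in LLC, against 7.83%. The calls depended on the setting. With array weights, limma called Irf1 and Ifih1 between MC38 and LLC, among 474 genes in all. With the values as deposited it called Ifih1 there, among 225 genes in all. No line had replicate cultures of 1 kind, and its 2 arrays carry different hairpin labels, so the error of these contrasts rests on how the sh Spp1 difference varied between lines. The 2 arrays of a line lay far apart for Irf7 in MC38 (SD of 2.60, against 0.04 in LLC). Such an SD restates the sh Spp1 difference of the line and is not a spread of replicates.

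The second comparison set sh Spp1 against sh Ctrl within each line, by size alone, since each side is 1 array. In MC38, 6 of the 9 genes were lower on the sh Spp1 array by at least 1 log2 unit, against 1.7% of 17014 genes. Irf7 had a log2 ratio of -3.68, a level 12.8-fold lower, Dhx58 -2.96 or 7.76-fold, Ddx58 -2.13 and Stat2 -2.08. Irf9 had -1.82, Ifih1 -1.48 and Irf1 -0.90. Each is a ratio of 1 array pair without an error. The median ratio of the 9 genes was -1.82, and that of all genes 0.02.

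In AE17 the same genes had ratios on the other side. Here 4 of the 9 were higher on the sh Spp1 array by at least 1 log2 unit, against 9.9% of 17678 genes, and 0 were lower by that much, against 8.71%. Ifih1 had 2.07, a level 4.21-fold higher, Dhx58 1.62 or 3.08-fold, Irf7 1.18 and Ddx58 1.04. Irf9, Irf1 and Ifnar2 had 0.94, 0.91 and 0.83. Stat2 had 0.17, although it was 4.22-fold lower in MC38. The median of the 9 genes was 0.94 in AE17, and that of all genes -0.04. The AE17 arrays also differed in Krt8, as given above, and in many other genes, and the part of this wider difference in the ratios was not tested.

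In LLC 0 of the 9 genes differed by 1 log2 unit, against 1.75% of 17054 genes higher and 1.81% lower. Irf1 had -0.87, Ifih1 and Dhx58 -0.62 each, Ifnar1 -0.47 and Ddx58 0.36, and Stat2, Irf7, Irf9 and Ifnar2 lay between -0.09 and 0.15. The median was -0.09, against 0.03 for all genes. LLC was also the line with the lowest sh Ctrl level of the 7 genes other than the receptor chains.

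**Figure D2:**
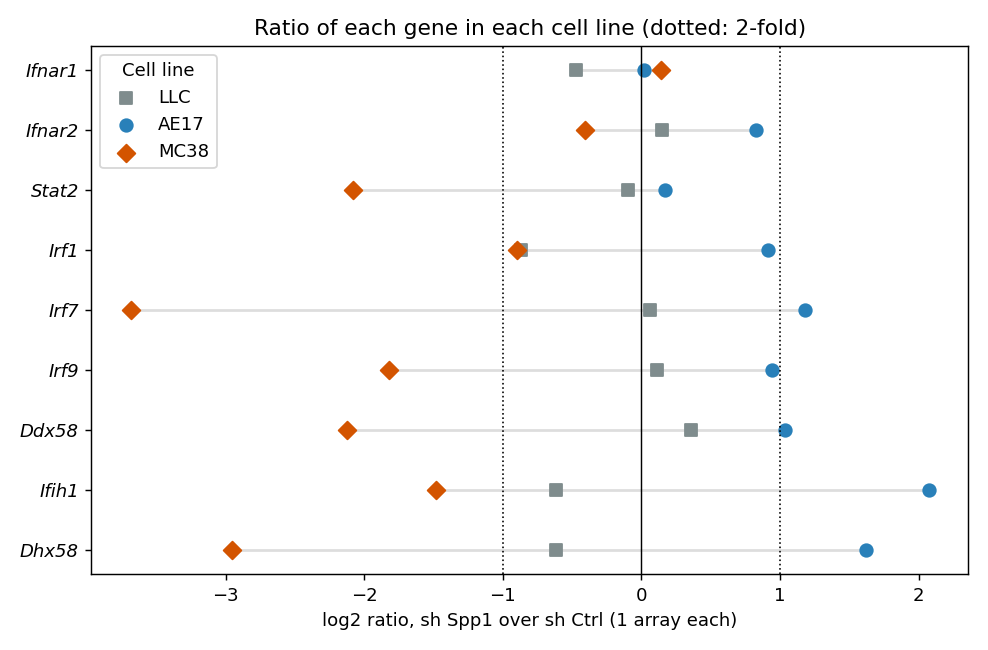
Log2 ratio of the sh Spp1 array over the sh Ctrl array (x axis) for each gene (rows) in LLC (squares), AE17 (circles) and MC38 (diamonds), 1 array pair per point, with 2-fold dotted. Irf7 has the lowest MC38 value at -3.68, and Ifih1 the highest AE17 value at 2.07.

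All genes but Ifnar1, 8 of the 9, were higher on the AE17 sh Spp1 array and lower on the MC38 one, a pattern that 19.8% of all genes showed. For Irf7, Ddx58, Ifih1 and Dhx58 each difference reached 1 log2 unit, which 0.572% of all genes did. The order of the lines differed with it. MC38 exceeded AE17 by at least 1 log2 unit in 7 genes on the sh Ctrl arrays, against 5.85% of all genes, and in 0 genes on the sh Spp1 arrays, against 5.52%. For Irf7 the MC38 minus AE17 difference was -2.96 on the sh Spp1 arrays and 1.90 on the sh Ctrl arrays. For Dhx58 it was -1.22 on the sh Spp1 arrays and 3.36 on the sh Ctrl arrays, and for Irf9 -1.27 and 1.49. Irf1 and Ifih1 were almost equal in the lines on the sh Spp1 arrays, at 0.15 each, against 1.96 and 3.70 on the sh Ctrl arrays.

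Over the 3 lines no gene of the 9 had the same sign in each line, which 32.2% of all genes had. In limma's paired fit, blocked by cell line, 0% of the 16797 genes passed an adjusted p of 0.05 and 6.05% had an unadjusted p under 0.05, none of the 9 among them. The mean log2 ratio was -0.81 ± 2.55 for Irf7 (SD, n = 3 lines), with a 95% interval of -3.36 to 1.74, and -0.65 ± 2.29 for Dhx58. Ifih1 had -0.01 ± 1.85, although its level differed by more than 1 log2 unit in 2 lines. Ifnar1 had -0.10 ± 0.32, with an interval of -0.64 to 0.43, the narrowest of the 9. The adjusted p in limma ran from 0.732 for Stat2 to 0.998 for Ifih1. An exact two-sided sign-flip test over the lines gave p from 0.75 to 1, where 3 pairs cannot go below 0.25. Without MC38, Irf7 had a mean of 0.62 and Dhx58 0.50, and without AE17 they had -1.81 and -1.79, so the sign of these means rested on MC38.

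Array medians differed in the intensities as deposited, and the scaling bears on the sizes. Without normalization the typical gene had a log2 ratio (median) of -0.46 for LLC, -0.23 for AE17 and 0.08 for MC38, and ratios are given here relative to this median. Relative to all genes, the sign of all 9 genes was the same in both scalings in AE17 and in MC38. In MC38 Irf7 had -3.56 in the values as deposited, against -3.70 after quantile normalization, and Irf1 -0.64, against -0.92. Before the median was subtracted, 6 of the 9 genes were higher in AE17 by at least 1 log2 unit as deposited, among 1683 genes in all. After quantile normalization 4 of the 9 were, among 1751 genes. In LLC Irf7 and Irf9 turned sign, from 0.04 and 0.09 after normalization to -0.28 and -0.07 as deposited, and Ifnar1 moved from -0.50 to 0.00. The LLC ratio of Irf1 relative to all genes was -0.89 after normalization and -1.09 as deposited.

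**Figure D3:**
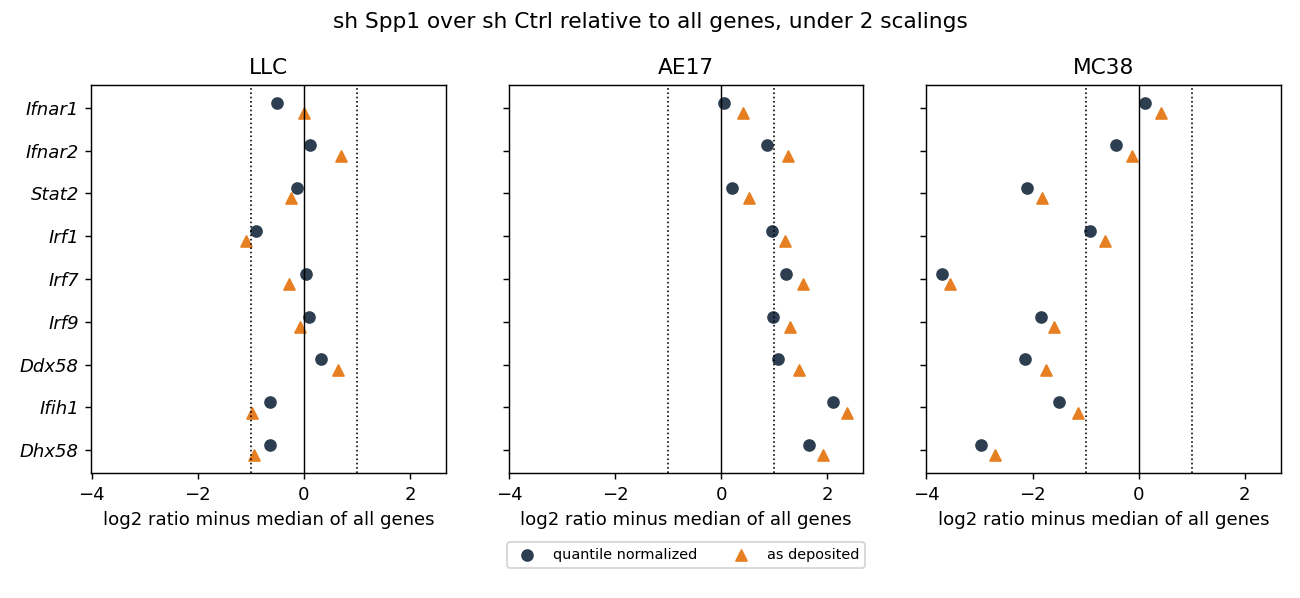
Log2 ratio of sh Spp1 over sh Ctrl minus the median of all genes (x axis) for each gene in the 3 lines, after quantile normalization (circles) and as deposited (triangles). In AE17 and MC38 the 2 scalings lie on the same side of 0 for every gene, while in LLC Irf7 and Irf9 cross it and Ifnar1 moves from -0.50 to 0.00.

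The 7 genes other than the receptor chains had profiles that were alike but not equal. Over the 6 arrays, which are 3 pairs and not independent, Irf9 and Ddx58 correlated at r = 0.993 and Stat2 and Irf7 at 0.982, whereas Irf1 and Irf7 correlated at 0.773. Irf1 and Ifih1 correlated at 0.985, and in both the MC38 sh Spp1 array stayed above both AE17 arrays. Against the mean of the other 8 genes, the 7 had r from 0.913 for Ifih1 to 0.988 for Irf9, while Ifnar1 had 0.632 and Ifnar2 0.245. Among genes outside the 9, those closest to their mean profile were the adhesion gene Kirrel3 at r = 0.999, the apoptosis factor Xaf1 at 0.997, Oasl2 at 0.995, Parp9 at 0.991, the chaperone-like Rtp4 at 0.987 and the antiviral enzyme Rsad2 at 0.985. All but Kirrel3 are well-known interferon-stimulated genes, and Kirrel3 had ratios of -0.25, 0.68 and -1.14 in LLC, AE17 and MC38.

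For single genes the closest were Oas2 and Oas1b for Stat2 (r = 0.987 and 0.982), Slfn2 and Oas2 for Irf7 (0.990 and 0.981), and Oasl2 and Rtp4 for Irf9 (0.991 each). Irf1 was closest to the immunoproteasome subunit Psmb8 at 0.986 and to the olfactory receptor gene Olfr331 at 0.982. Among the sensors, Ddx58 was closest to Ifi209 and Rtp4 (0.994 and 0.983), Ifih1 to the chemokine Ccl5 and to Ifit1 (0.997 and 0.995), and Dhx58 to Parp14 and Gbp7 (0.997 each). The receptor chains were closest to genes of other kinds, Ifnar1 to Sec14l1 and the DNA ligase Lig1 (0.993 and 0.983) and Ifnar2 to the fatty acid elongase Elovl4 and to Rnf157 (0.991 and 0.974). These values were the highest among 4079 candidate genes over only 6 arrays and describe these libraries.

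Upstream of the receptor, most interferon genes had dim signals. Of 18 type I interferon genes listed, 16 had a probe set, 7 of these were bright enough to be tested, and 0 of the 7 differed by 1 log2 unit in any line, with medians of -0.04, -0.30 and -0.13 in LLC, AE17 and MC38. Ifnb1, the interferon beta gene, lay under the floor on all arrays, at 3.38, 2.96 and 3.46 on the sh Spp1 arrays and 3.46, 3.52 and 3.29 on the sh Ctrl arrays. Ifna9 also lay under the floor on all arrays, at 3.32, 2.71 and 2.54 on the sh Spp1 arrays and 3.28, 3.72 and 4.06 on the sh Ctrl arrays, and no ratio is given for such signals. In AE17 Ifna1 and Ifna6 had -0.81 and -0.77, and Ifna7 and Ifne 0.35 and 0.31, where Ifna6 on the sh Spp1 array and Ifne on the sh Ctrl array were under the floor. In MC38 Ifna4 and Ifna15 had -0.48 and -0.20, and Ifna14 and Ifna6 0.25 and 0.05. The genes of interferon gamma and lambda, Ifng, Ifnl2 and Ifnl3, had ratios between -0.37 and 0.29 in all lines. Alpha interferon genes are near-identical copies, so their signals may be shared.

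The tested genes of other receptor chains, kinases and other STATs had ratios between -0.44 and 0.55 in MC38. Ifngr1, a chain of the interferon gamma receptor, had -0.69, -0.39 and -0.44 (LLC, AE17, MC38 in turn), and its partner Ifngr2 -0.35, 0.52 and -0.21. Ifnlr1 and Il10rb, of the interferon lambda receptor, had 0.91 and 0.17 in AE17 and -0.13 and 0.08 in MC38. Jak1 had -0.14, -0.21 and 0.03, and Tyk2 -0.22, -0.28 and 0.20. The kinase Jak2 had -1.13 in AE17, the only one of 7 tested kinases and STATs past 1 log2 unit in any line. Stat3 and Stat6 had 0.84 and 0.64 in AE17, and Stat6 and Stat5a 0.55 and 0.49 in MC38, where Stat5b had -0.01. In MC38 the kinases and other STATs had a median of 0.03, beside -2.08 for Stat2.

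The other interferon regulatory factors did not follow the size of the Irf7 and Irf9 ratios in MC38 either. Irf3, which the sensors activate without new synthesis, had -0.32, 0.13 and 0.26 (LLC, AE17, MC38 in turn), and Irf2, a repressor of the family, 0.28, -0.08 and -0.29. Irf8 had -0.56, 0.90 and 0.49, so that in AE17 it lay on the side of Irf7 and Irf9. The cofactor gene Irf2bpl had 0.90, 1.22 and 0.63, and Irf2bp2 0.28, -0.23 and 0.58. Of the 6 tested, 5 were above 0 in MC38, against 8788 of 16797 genes, with a median of 0.50. The 6 include the cofactor genes Irf2bp1, Irf2bp2 and Irf2bpl, so this count and median do not describe the factors alone.

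Among 22 tested adaptors, kinases and further sensors, 4 were lower in MC38 by at least 1 log2 unit, against 1.7% of all genes, and 0 higher, against 0.882%. In AE17 3 were higher and 2 lower, near the 9.9% and 8.71% of all genes. Mavs, the adaptor of RIG-I and MDA5, had -0.24, -0.58 and 0.04 in LLC, AE17 and MC38. Tbk1, the kinase that activates Irf3 and Irf7, had 0.09, -1.11 and 0.09. The nucleic acid sensor Zbp1 had -0.04, 2.69 and -3.38, and Ifi204 0.77, -0.01 and -3.52. Tlr2 had 1.44 in AE17, and the DNA sensor Aim2 -5.33, with a sh Spp1 level under the floor. Tbkbp1 and Tlr4 had the highest MC38 ratios of this list, at 0.98 and 0.41. The medians of the list were 0.11, -0.15 and 0.03, beside 0.03, -0.04 and 0.02 over all genes.

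Of 24 tested regulators of the sensors, 3 were lower in MC38 by at least 1 log2 unit, against 1.7% of all genes, and 3 higher in AE17, near the 9.9% of all genes. The helicase gene Ddx60 had 1.44 in AE17 and -3.41 in MC38, while both LLC arrays and the AE17 sh Ctrl array were under the floor, which leaves the size in AE17 not measured. Nlrc5 had 1.35 in AE17, and among ubiquitin ligases Rnf125 had -4.03 in AE17 and Trim21 -1.32 in MC38. The deubiquitinase gene Cyld had -0.78 in AE17, and the helicase genes Ddx3x and Ddx21 had 0.28 and 0.21 in MC38. Among 19 negative regulators of interferon signalling, Usp18, which blocks the receptor at Ifnar2, was at 5.15, 10.97 and 7.88 on the sh Spp1 arrays of LLC, AE17 and MC38, and at 6.06, 9.09 and 11.88 on the sh Ctrl arrays. Isg15, the modifier that Usp18 removes, had ratios of 1.66 in AE17 and -1.60 in MC38, and was under the floor on both LLC arrays. Socs2 had 5.50 in AE17, where its sh Ctrl level was under the floor, and the phosphatases Ptpn6 and Ptpn2 -1.58 and -0.90. Sharpin and Trim28 had 0.68 and 0.66 in MC38.

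Antiviral effector genes induced by interferon had ratios on the same sides as the 7 genes. In MC38 34 of 35 tested were below 0, against 8004 of 16797 genes, and 30 were lower by at least 1 log2 unit, against 1.7% of all genes, with a median of -2.06. In AE17 29 were above 0, against 7947 of 16797 genes, with a median of 0.96. By at least 1 log2 unit, 17 were higher there, against 9.9% of all genes, and 2 lower, against 8.71%, and in LLC the median was -0.12. Oas2 had -4.49 in MC38, and Phf11d -4.79 with a sh Spp1 level under the floor, so that its size is not measured. Epsti1 and Ifit3 had the highest MC38 ratios at 0.63 and -0.21. Cmpk2 and Oasl1 had the highest AE17 ratios at 3.84 and 3.29, and Samd9l and Herc6 the lowest at -1.15 and -1.13. These genes overlap with lists already known to differ in these data, so they are not independent evidence. Over the lines 0 genes of the 9 lists passed limma at an adjusted p under 0.05.

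**Figure D4:**
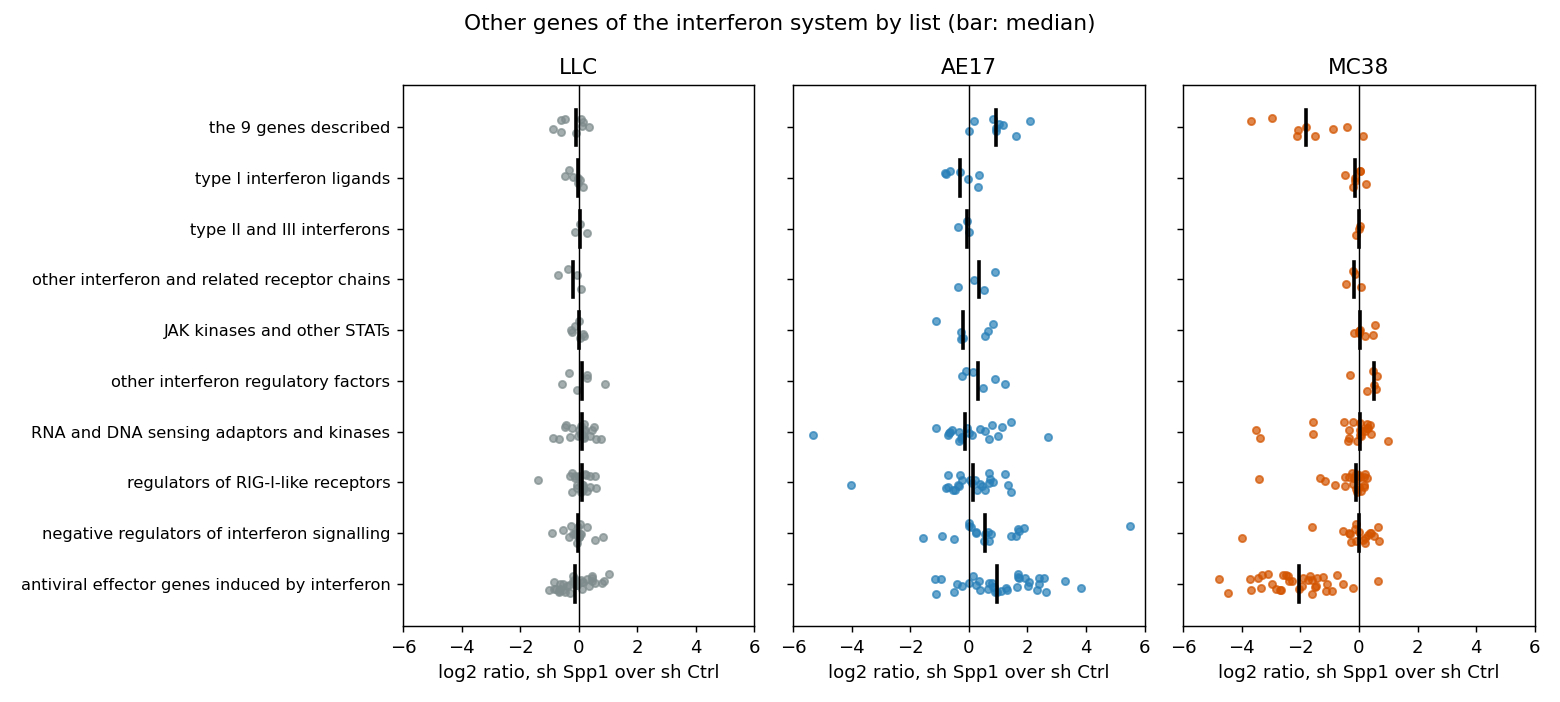
Log2 ratio of sh Spp1 over sh Ctrl (x axis) in LLC, AE17 and MC38 for the 9 genes described and for the tested genes of 9 lists of the interferon system (rows), 1 point per gene, with the list's median as a bar. In MC38 the 9 genes and the antiviral effectors have medians of -1.82 and -2.06, while the type I ligands, the kinases with other STATs, and the adaptors have medians of -0.13, 0.03 and 0.03.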

How the data were processed

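Deposited intensities of 41345 probe sets on 6 arrays were used, on a linear scale from 1.28 to 15526. RMA is named, without its settings, per the submitters' processing notes. GeneSpring GX 12.5 is named in the series design. The annotation version and summary level are not given in the sources used here. Array medians of the deposited intensities differed, so values were log2 transformed and quantile normalized with limma 3.58.1 in R 4.3.3. Genes were named from 23521 probe sets with 1 symbol; 1814 had several and 16010 none. Probe sets whose mean reached the 30th percentile were tested, the brightest for each gene.

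Groups came from titles. The cell line was the block in lmFit and eBayes, with Benjamini-Hochberg adjustment over all genes, and contrasts between lines came from the same fit. Within a line there was no test, and genes that reached the floor on either array were counted where the log2 ratio was 1 or more in size. Nothing says that cultures were separate, and the number of arrays limits the precision. The fit was tested on simulated data. The genes, lists and tests were chosen with earlier results of these data known. Genes were named by rule: all 9, the 2 highest and 2 lowest of each list in AE17 and in MC38, Usp18, Mavs, Tbk1, Irf3, Jak1, Tyk2 and Ifnb1 whatever their values, and the closest profiles among genes with an SD of at least 0.5, predicted genes passed over. Tlr3, Eif2ak2, Ifi27, Oas1b, Oas3, Ifna9, Krt18, Foxa2, Pdpn, Cd68 and Lyz2 were chosen after their values were seen. Promoters came from RefSeq, and the motifs were chosen after the files were read, a shorter one being dropped. Alternatives covered the scaling, the filter, the probe set rule, each line left out, the block, array weights, the variance prior and the fold. Figures used matplotlib 3.10.9 in Python 3.11.15.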

Additional observations from a re-analysis of the deposited data

Results flagged for a closer look

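For 4 genes the ratio of sh Spp1 over sh Ctrl went in opposite directions in AE17 and MC38, by at least 1 log2 unit in each. The ratio in AE17 exceeded that in MC38 by 4.86 log2 units for Irf7, 4.58 for Dhx58, 3.56 for Ifih1 and 3.16 for Ddx58. Each ratio is 1 array against 1 array, and the difference between the lines was not tested.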

How the results depend on the processing

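The ratio of a single gene in a line kept its direction wherever it reached 1 log2 unit, in 135 values over 5 alternatives. Of these values 9 newly reached that size and 1, Ifih1 in MC38 with centred arrays, no longer did. Each gene had 1 probe set, so the filter and probe set alternatives could not change a ratio. Only the values as deposited and the centred arrays could. Mean ratios over the lines never passed the test, with adjusted p from 0.167 to 0.9995 in 99 values, and 18 changed sign. Centring each array on its median gave means of 0.55 for Ifnar1, 0.10 for Irf1, 0.15 for Irf9, 0.39 for Ddx58 and 0.35 for Ifih1, the values as deposited 0.075 for Ifnar1, and array weights -0.083 for Ifnar2. Leaving out 1 line at a time gave -0.23 to 0.078 for Ifnar1, -0.13 to 0.49 for Ifnar2, -1.09 to 0.039 for Stat2, -0.88 to 0.022 for Irf1, -1.81 to 0.62 for Irf7, -0.85 to 0.53 for Irf9, -0.88 to 0.70 for Ddx58, -1.05 to 0.73 for Ifih1 and -1.79 to 0.50 for Dhx58. Without LLC, Irf1 had 0.0068 and Ifih1 0.29. The fit with no replicate block kept the means and gave adjusted p from 0.948 to 0.9995. In all 12 settings 0 genes passed for the shRNA, with a smallest adjusted p of 0.126.

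Of the 9 genes, 3 were lower past the fold in LLC as deposited, 1 higher there with centred arrays and 7 higher in AE17 with centred arrays. At a fold of 0.58 log2 units 3 were lower in LLC and 7 higher in AE17. Over all genes the values as deposited gave 134 higher and 3216 lower in LLC and 380 higher in MC38, against 299, 308 and 150. Centred arrays gave 2707 higher against 156 lower genes for LLC, 3362 against 854 for AE17, and 857 higher for MC38. The lower fold gave 1399 higher against 1304 lower for LLC, 3336 against 3486 for AE17, and 1037 against 916 for MC38. For MC38 against LLC limma called 225 genes as deposited, 44 with no brightness filter, 42 with a filter at the 50th percentile, 89 with no shRNA term, 474 with array weights and 50 with a trended prior. For AE17 against LLC it called 103 as deposited, 9 with no shRNA term and 1 with the trended prior. For MC38 against AE17 it called 287 as deposited, 27 at the 50th percentile, 100 with no shRNA term and 1 with the trended prior. The cause of these changes was not tested. Signals near the floor, as of Ifih1 in LLC, limit ratios there.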

Other observations

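Among other genes whose products bind double-stranded RNA, Tlr3 and Eif2ak2 had ratios below 0 in AE17, whereas Oas1b, Oas2 and Oas3 had 0.66, 0.85 and 0.82. Tlr3, the endosomal receptor, was at 4.27, 8.10 and 7.98 on the sh Spp1 arrays of LLC, AE17 and MC38, and at 4.94, 8.78 and 9.54 on the sh Ctrl arrays. Eif2ak2, which encodes the kinase PKR, was at 7.43, 8.07 and 8.11 on the sh Spp1 arrays, and at 7.88, 8.78 and 9.69 on the sh Ctrl arrays. Their ratios in AE17 were -0.68 and -0.71, beside 1.04 for Ddx58 and 2.07 for Ifih1, and their ratios were below 0 in all 3 lines, though Tlr3 lay under the floor on the LLC sh Spp1 array. Of all genes, 32.2% had 1 sign in the 3 lines. Tlr3 and Eif2ak2 were chosen for this pattern after their values were seen, their mean ratios of -0.97 ± 0.51 and -0.91 ± 0.59 (SD, n = 3 lines) did not pass limma, with an adjusted p of 0.723 for each, and the difference from Ddx58 and Ifih1 was not tested.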
